A study of Mus musculus with 8 samples.

Results

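The molecular clock of the mouse hippocampus was examined at 3 months of age (3M, young adults) and at 29 months (29M, near the end of the life span). The clock genes were the period genes Per1, Per2 and Per3, the activators Arntl and Clock, the cryptochromes Cry1 and Cry2, the nuclear receptors Nr1d1 and Nr1d2, and the output regulator Dbp. Every probe that was not a control and whose accession belonged to 1 of these 10 genes was taken. This gave 11 of 39429 probes on the array, with 2 probes for Dbp and 1 for each other gene. All mice were untreated wild type animals of the strain C57BL/6J that had aged in their home cages, and the whole hippocampus was dissected by hand. The study states that its oldest mice were bought from a supplier when already aged and were then kept for some months in its own rooms. Each age group had 4 samples, and each sample was hybridised to 1 array. The hour at which tissue was taken is not given in the sources used here, so an effect of age and an effect of sampling time on a rhythmic gene cannot be told apart.

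In mammalian cells the proteins of Arntl (BMAL1) and Clock bind as a dimer to E-box elements and switch on the period and cryptochrome genes. Period and cryptochrome proteins then enter the nucleus and repress that dimer, which closes a loop of about a day. In a second loop the receptors made by Nr1d1 and Nr1d2 (REV-ERB alpha and beta) repress Arntl, while receptors of the ROR family activate it through the same DNA element. Dbp is switched on through E-boxes and passes the rhythm on to genes that carry a D-box. The hippocampus holds such a clock of its own, and transcripts of the activator Arntl and of genes such as Dbp peak at opposite times of day in most tissues. Per1 is in addition induced by light, by neuronal activity and by glucocorticoids.

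The DNA elements through which these genes act on each other were looked up in RefSeq promoter windows of the GRCm38.p6 assembly, which run from 250 bases before to 50 bases after an annotated start. Of the 10 clock genes 9 had an entry, with 13 windows in all, and Per2 had none. Both strands were searched. The E-box CACGTG was found in 1 window each of Per1 and Cry1, and in 7.15% of all 32851 windows. The D-box TTATGTAA or TTATGCAA was found in 1 window each of Per1 and Per3, and in 1.66% of all windows. The ROR element TAGGTCA was found only for Arntl, beginning at base 31 counted from a start, and it was present in 2.61% of all windows. The cAMP response element TGACGTCA was in none of the 13 windows and in 1.79% of all, and its first 5 letters TGACG (which that element contains) were in windows of Per1, Cry1 and Cry2 and in 20.8% of all. The stretches below are shown because they hold the E-boxes read by Arntl and Clock and the D-boxes read by Dbp. The element is in capitals and the sequences run 5′ to 3′ on the strand of the gene. The stretches of Per3 and Cry1 lie before the annotated genes (chr4:150997018-151044707 and chr10:85131700-85185054, both on the minus strand). Those of Per1 lie inside the span of the annotated gene (chr11:69095108-69109965), whose outermost start is farther upstream. A match of letters is a description of the window and not a measured binding site.
Per1, E-box, 166 bases before the start, chr11:69098767-69098804, plus strand: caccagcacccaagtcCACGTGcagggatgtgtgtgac
Per1, D-box, 24 bases before the start, chr11:69098909-69098948, plus strand: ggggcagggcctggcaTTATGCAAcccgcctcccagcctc
Per3, D-box, 205 bases before the start, chr4:151044847-151044886, minus strand: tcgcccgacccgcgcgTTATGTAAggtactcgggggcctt
Per3, D-box, 158 bases before the start, chr4:151044800-151044839, minus strand: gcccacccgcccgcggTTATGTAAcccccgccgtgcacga
Cry1, E-box, 60 bases before the start, chr10:85185093-85185130, minus strand: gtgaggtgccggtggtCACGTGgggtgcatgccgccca

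Levels are given as normalized intensities on a generalized log2 scale. On this scale a doubling is a step of 1 for bright probes and a smaller step for dim ones. Such levels can be compared between arrays for 1 probe, and not between probes. Both ages were present on each of the 3 slides used. Slide 1 held replicate 1 of 3M with replicates 3 and 4 of 29M. Slide 2 held replicates 3 and 4 of 3M with replicate 1 of 29M, and slide 3 held replicate 2 of each age. Each difference within a slide thus rests on 1 array of at least 1 age and is only a description. The share of spots well above background was 76.2% to 85.0% per array, and no spot was saturated. Replicate 1 of 3M had the lowest share, and its quality report alone asked for evaluation. Clock probes were well above background on all 8 arrays, except that Per3 was so on 3 of the 4 arrays of 3M. Precision is limited by the number of arrays.

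No clock gene passed the test for a change with age. Calls required an adjusted p under 0.1 (limma, Benjamini-Hochberg over all tested probes) together with an absolute log2 change of at least 0.5, and 0 of the 11 clock probes met this. Over the whole array 777 of 39408 tested probes (1.97%) met it, with 1.16% higher and 0.815% lower in 29M. Counted by gene, 0 of the 10 clock genes met it, beside 2.17% of all genes. The smallest adjusted p of a clock probe was 0.238 in limma. At an unadjusted limma p under 0.05 there were 4 clock probes, in Arntl, Clock, Cry1 and Dbp, beside 17.0% of all probes. The 2 age groups overlapped for every clock probe, and they were separate for 11.0% of all probes. With only 11 clock probes this does not set them apart from the array. Of the 10 genes, each by its brightest probe, 5 had a positive and 5 a negative difference (29M minus 3M), and their median was 0.02 beside 0.01 for all genes. For 9 of the 11 probes the 95% interval of the difference lay within -0.5 and 0.5. The exceptions were Cry1 and 1 probe of Dbp, whose intervals reached past 0.5 in size.

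**Figure D1:**
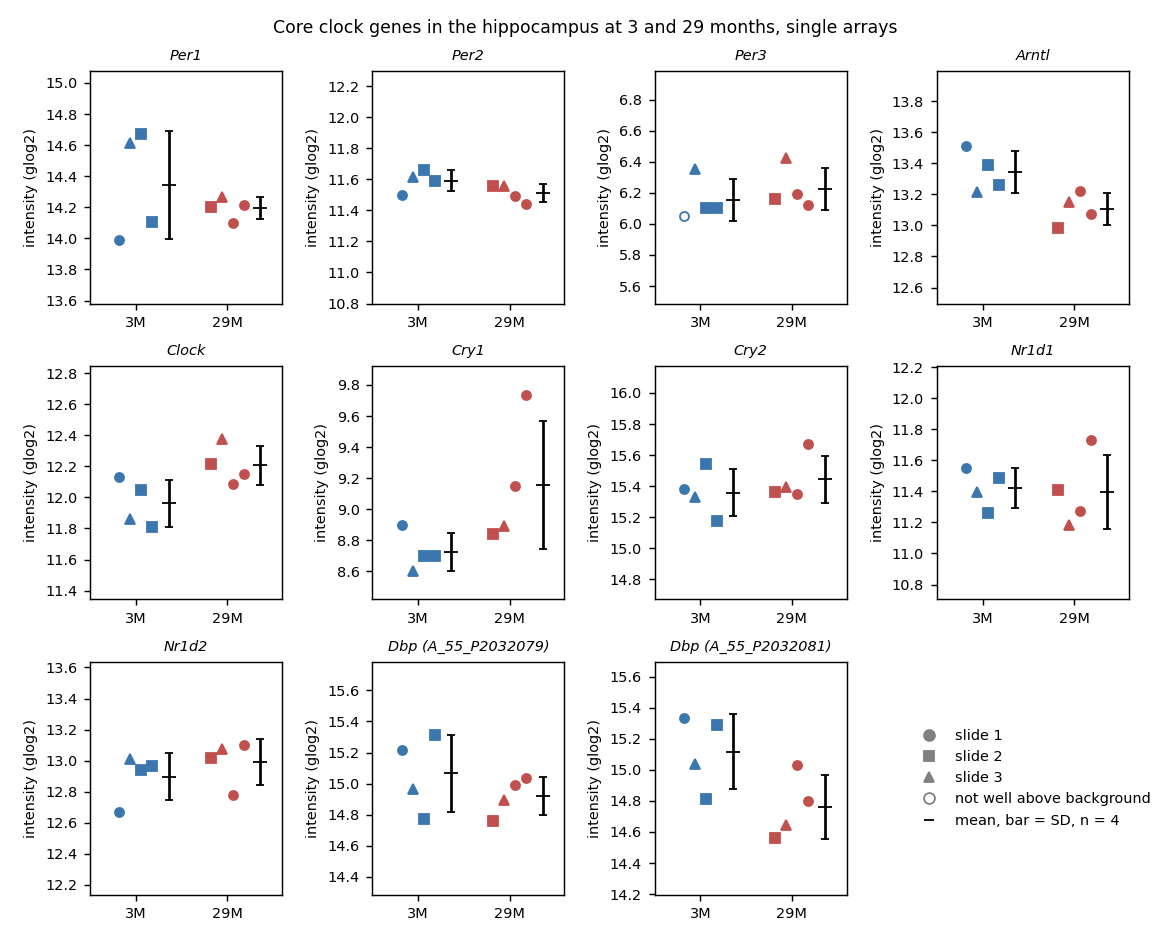
Normalized intensity (generalized log2, each panel spanning 1.5 units) of the 11 clock probes on each array, with 3M in blue, 29M in red, symbols for the slide, and the mean with its SD (n = 4) beside the points. The groups overlap in every panel, the 3M values of Per1 spread from 13.99 to 14.67, and the highest 29M value of Cry1 (9.74) stands above all others of that probe.

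Among the activators, Arntl and Clock differed in opposite directions by about the same amount, and neither passed the test. Arntl codes for the partner without which the loop stops. Its level was 13.51, 13.21, 13.39 and 13.26 in replicates 1 to 4 of 3M. In 29M it was 12.98, 13.15, 13.22 and 13.07. The ranges touched at a single point, since the highest array of 29M (13.22) lay just above the lowest of 3M (13.21). The mean was 13.34 ± 0.13 (SD, n = 4) in 3M and 13.11 ± 0.10 in 29M, a difference of -0.24 (SE 0.09, 95% interval -0.44 to -0.03), or 0.849 times the 3M level. Limma gave an unadjusted p of 0.0299 and an adjusted p of 0.238 for Arntl. It was lower in 29M on all 3 slides, with differences of -0.36, -0.34 and -0.06 on slides 1, 2 and 3.

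Clock codes for the DNA-binding partner of Arntl. Its level was 12.13, 11.86, 12.05 and 11.81 in 3M and 12.21, 12.38, 12.09 and 12.15 in 29M. Only the lowest array of 29M fell within the range of 3M. The mean was 11.96 ± 0.15 in 3M and 12.21 ± 0.13 in 29M (SD, n = 4), a difference of 0.24 (SE 0.10, 95% interval 0.02 to 0.47) with an adjusted limma p of 0.262. On slide 1 the ages did not differ (-0.01), and the differences were 0.28 on slide 2 and 0.52 on slide 3.

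Among the repressors, the 3 period genes showed no common direction. Per1 is the period gene that acute stimuli induce. In 3M its level was 13.99, 14.62, 14.67 and 14.10. In 29M it was 14.20, 14.27, 14.10 and 14.22. Thus the arrays of 3M fell into a high pair (replicates 2 and 3) and a low pair (replicates 1 and 4), and 3 of the 4 arrays of 29M lay between them, while replicate 3 of 29M lay within the low pair. The SD was 0.35 in 3M and 0.07 in 29M, a difference in spread that was not tested. The mean difference was -0.15 (SE 0.15, 95% interval -0.50 to 0.20, adjusted limma p 0.671), and it was 0.17, -0.18 and -0.35 on slides 1, 2 and 3. With 1 array left out it ran from -0.26 (without 3M replicate 1) through -0.05 (without 3M replicate 2) to -0.04 (without 3M replicate 3), so single arrays of 3M set its size. Per1 was thus higher with age on slide 1 and lower on the others.

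Per2, a main carrier of the repression, varied least among the clock probes. Its level stayed between 11.50 and 11.66 in 3M and between 11.44 and 11.56 in 29M. The within-group SD was 0.06, at percentile 2.09 of all bright probes, whose median SD was 0.154. The difference was -0.08 (95% interval -0.24 to 0.09, adjusted limma p 0.635), the narrowest interval among the clock probes.
Per3, whose protein takes a smaller part in the loop, was the clock gene nearest to background. Its level was 6.05, 6.35, 6.10 and 6.10 in 3M and 6.16, 6.42, 6.19 and 6.12 in 29M. Replicate 2 was the highest array at either age, and both of these arrays lay on slide 3. The difference was 0.07 (95% interval -0.15 to 0.30, adjusted limma p 0.765). At so low a signal the scale compresses differences, and under the alternative settings described below this one ran from 0.007 to 0.24.

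The 2 cryptochromes, which make the stable repressors of the loop, both had positive differences. Cry1 had the largest difference of the 10 genes. Its level was 8.90, 8.60, 8.70 and 8.70 in 3M and 8.84, 8.89, 9.15 and 9.74 in 29M. Replicates 1 and 2 of 29M lay within the 3M range, and replicates 3 and 4 lay above it. The mean was 8.72 ± 0.12 in 3M and 9.15 ± 0.41 in 29M (SD, n = 4), a difference of 0.43 (SE 0.18, 95% interval 0.02 to 0.84), or 1.35-fold. Limma gave an unadjusted p of 0.0408 and an adjusted p of 0.271 for Cry1. Without replicate 4 of 29M the difference was 0.24, so this array carried much of it. On slides 1, 2 and 3 the differences were 0.55, 0.14 and 0.29, and slide 1 held replicates 3 and 4 of 29M. Cry1 had the largest within-group SD of the clock probes, 0.30, at percentile 88.1.

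Cry2 was 15.38, 15.33, 15.54 and 15.17 in 3M and 15.36, 15.40, 15.35 and 15.67 in 29M. Replicate 4 of 29M was again the highest array of its group, while the other 3 lay close together. The difference was 0.09 (95% interval -0.15 to 0.33, adjusted limma p 0.729).

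The nuclear receptors of the second loop differed little between the ages. Nr1d1 was 11.55, 11.40, 11.26 and 11.48 in 3M and 11.41, 11.18, 11.27 and 11.73 in 29M. The group with the wider range was 29M, and it contained the whole range of 3M. The difference was -0.02 (95% interval -0.31 to 0.26, adjusted limma p 0.943), with no direction that held over the slides (-0.05, 0.04 and -0.21). Nr1d2 was 12.67, 13.01, 12.94 and 12.96 in 3M and 13.01, 13.07, 12.78 and 13.10 in 29M. Its lowest array in each group lay on slide 1, and so did its highest array of 29M. The difference was 0.10 (95% interval -0.14 to 0.33, adjusted limma p 0.699).

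Dbp, the rhythmic output regulator, was measured by 2 probes that did not give the same size of difference. At the brighter probe, A_55_P2032079, the level was 15.22, 14.96, 14.77 and 15.31 in 3M and 14.76, 14.90, 14.99 and 15.04 in 29M. The range of 29M lay inside or at the edge of that of 3M. The difference was -0.15 (SE 0.13, 95% interval -0.43 to 0.14, adjusted limma p 0.605). At the other probe, A_55_P2032081, the level was 15.33, 15.03, 14.81 and 15.29 in 3M and 14.56, 14.65, 15.03 and 14.80 in 29M. Here 3 arrays of 29M lay below all arrays of 3M, and replicate 3 lay within the range of 3M. The mean was 15.12 ± 0.24 in 3M and 14.76 ± 0.21 in 29M, a difference of -0.36 (SE 0.14, 95% interval -0.67 to -0.04) with an adjusted limma p of 0.240. Both probes were lower in 29M on all 3 slides, by 0.20, 0.28 and 0.07 at the brighter probe and by 0.42, 0.49 and 0.39 at the other. The level of A_55_P2032081 minus that of A_55_P2032079 on the same array was 0.11, 0.07, 0.04 and -0.02 in 3M and -0.20, -0.25, 0.04 and -0.24 in 29M. This gap was lower on 3 of 4 arrays of 29M than on any array of 3M, so the probes did not move equally. Which transcripts the probes tell apart was not tested.

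**Figure D2:**
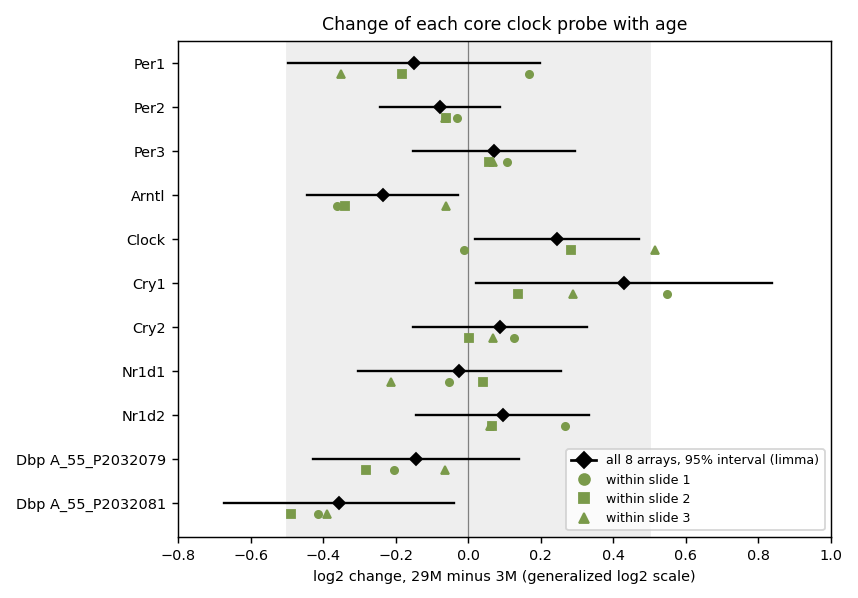
Log2 difference (29M minus 3M, horizontal axis) of each clock probe over all 8 arrays with its 95% limma interval (black), and the differences within each slide (green symbols); the grey band spans -0.5 to 0.5. Arntl and both Dbp probes are below 0 on all slides, Cry1 reaches from 0.14 to 0.55 by slide, and Per1 and Nr1d1 change sign between slides.

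The hippocampus was the tissue measured, and all 13 neuronal marker genes checked for it, such as Prox1 and Neurod6, were well above background on all 8 arrays. In bulk tissue fewer cells of a type and less RNA per cell cannot be told apart. Among markers of other cells, the microglial list had the largest median difference, 0.34, with 2 of 10 genes called higher (C1qa and Trem2) beside 1.46% of all genes. Its mean level, relative to the average of all arrays, was -0.27 to -0.03 in 3M and 0.10 to 0.25 in 29M. The endothelial list was separate by age as well (-0.09 to -0.05 in 3M and -0.01 to 0.11 in 29M), with no gene called. Of the other lists the astrocyte marker Gfap (0.70) and the meningeal marker Aebp1 (0.69) were called higher, and the precursor marker Gpr17 (-1.003) was called lower. These were single genes of mixed lists. Positive differences were found for 6 of 10 astrocyte genes (median 0.135), 5 of 10 meningeal genes (0.057) and 5 of 8 precursor genes (0.114). The neuronal list ran from -0.08 to 0.10 in 3M and from -0.14 to 0.12 in 29M, with a median difference of 0.03. Some lists stood out on single arrays. The thalamic list was at 0.36 on replicate 4 of 29M, against -0.08 to 0.04 on the other arrays of 29M. The choroid plexus list was at -0.81 on replicate 3 of 3M, against 0.002 to 0.43 on the other arrays of 3M. The meningeal list ran from -0.37 (replicate 4) to 0.38 (replicate 3) in 29M. The part that such shifts had in the values of clock genes was not tested.

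To ask whether arrays of 1 age deviated along the clock cycle, the deviations of each array from its group mean were compared between Arntl and the other 9 clock genes. In a cycling tissue the period, Nr1d and Dbp transcripts run against that of Arntl. With exact permutation of the arrays within each group (576 arrangements, two-sided) none of the 9 correlations passed the adjustment. The nearest was Nr1d2, with r of -0.78 (exact permutation p 0.0382, adjusted 0.344) and rho of -0.69 (exact permutation p 0.101, adjusted 0.531). Nr1d2 was low on 3M replicate 1 and 29M replicate 3, the arrays on which Arntl was highest in their groups. Without the 2 arrays farthest from the median of Arntl its r was -0.69 (exact permutation p 0.0833). With group and slide means removed over all 8 arrays it was -0.64. For the other 8 genes r ran from -0.42 (Per2) to 0.52 (Clock), with exact permutation p adjusted to 0.681 for each and adjusted p of rho from 0.531 to 0.833. Several of these values moved far between settings. Per2 went from -0.42 to 0.45 with slide means removed and to 0.58 without the 2 farthest arrays, and so changed sign. Nr1d1 went from -0.19 to -0.81 with slide means removed (adjusted exact permutation p 0.620) and to -0.70 without the 2 farthest arrays (exact permutation p 0.194). Dbp had an r of 0.20 with Arntl (rho 0.24, exact permutation p 0.681 and 0.632).

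Per1 and Dbp gave the widest contrast among the clock genes within groups. On the arrays of 3M where Per1 was high (replicates 2 and 3) both Dbp probes were low, and where Per1 was low (replicates 1 and 4) they were high. As a description over the 8 arrays, the deviations of Per1 had an r of -0.84 with those of Dbp, and 1.29% of the 15913 genes compared had an r as low. Those of Per2 had an r of -0.77 with Dbp, and those of Nr1d1 an r of 0.53. The arrays share slides, and 7.06% of all genes had an absolute r of at least 0.8, counting both directions. A single value of this size is thus only a description. The genes whose deviations were most like those of Dbp were Tmbim1 (r of 0.98), Irs3 (0.97), Dock1 (0.97), Czib (0.97) and Bricd5 (0.97). None of them belongs to the clock lists used here. Of the genes in those lists the nearest was Csnk1d, a kinase that marks period proteins for decay, with an r of 0.92 at rank 84. Hlf, a relative of Dbp that binds the same element, had an r of -0.79.

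**Figure D3:**
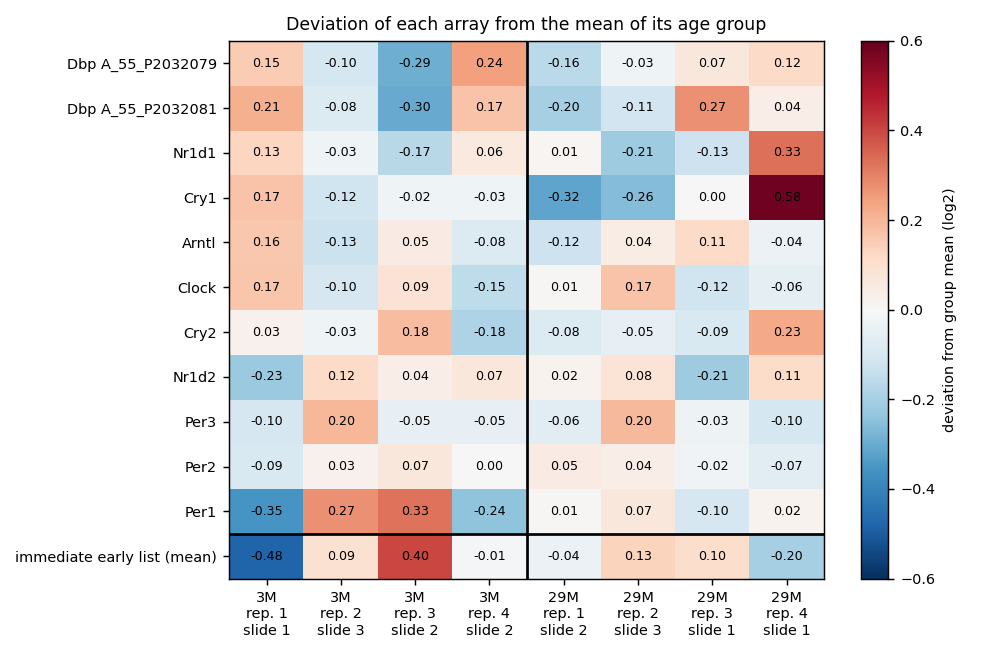
Deviation of each array from the mean of its age group (log2, colour and printed value) for the 11 clock probes, with the mean of the 20 immediate early genes in the bottom row; columns are the arrays with replicate and slide. Both Dbp rows and the Per1 row have opposite signs on all 4 arrays of 3M, and the largest deviation is that of Cry1 on replicate 4 of 29M (0.58).

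Per1 also answers to neuronal activity, so the 20 immediate early genes, which neurons switch on within minutes of firing, were set beside it. Their mean level, relative to the average of all arrays, was -0.33, 0.25, 0.56 and 0.15 in replicates 1 to 4 of 3M and -0.19, -0.03, -0.05 and -0.36 in 29M. Within 3M the lowest and the highest arrays of this list were also the lowest and the highest of Per1, but replicate 4 was low in Per1 and above the average in the list. In 29M the lowest array of the list, replicate 4, was the second highest of Per1. None of the 20 genes was called, and 17 had a negative difference, with a median of -0.23. Egr2, a zinc finger factor, had the lowest difference (-0.96, adjusted limma p 0.238) and Egr3 the highest (0.10, adjusted limma p 0.860). Egr2 was at -0.61 without 3M replicate 3, and at -1.27 and called without 3M replicate 1 (adjusted limma p 0.0637). Replicate 1 of 3M, the lowest of its group in the list, was the array with the lowest share of detected spots, and the part of either in the level of Per1 was not tested.
Glucocorticoids induce Per1 as well. Of 16 genes that respond to these hormones none was called, and 8 differed in each direction. The extremes were Plin4, which coats lipid droplets (1.28, adjusted limma p 0.155), and the metallothionein Mt2 (-0.44, adjusted limma p 0.0824, short of the size threshold). Replicate 4 of 29M carried much of the value of Plin4, at 12.74 against 10.72 to 10.90 on the other arrays of 29M. Without it Plin4 was at 0.80 and called (adjusted limma p 0.0433), and Mt2 was at -0.53 and called (adjusted limma p 0.0490).

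The wider clock machinery was examined in 4 lists that held 60 other genes. Of these 1 was called higher and 1 lower with age, beside 1.46% and 0.709% of all genes, and 30 differed in each direction with a median of 0.00. At an unadjusted limma p under 0.05 there were 10 of the 60, beside 17.2% of all genes.
The transcription factors of the loops were the list with the most upward median (0.10, with 8 of 13 genes positive), and none of the 13 was called. Rora, an activator of Arntl, had a difference of 0.35 (adjusted limma p 0.152), opposite in sign to that of Arntl. Rora also marks the thalamus. None of the 8 thalamic markers checked, Rora among them, was called, though their mean level stood out on replicate 4 of 29M (0.36). Rora itself was at 11.76 on that array and at 11.77 on replicate 2 of 29M. Without replicate 4 of 29M its difference was 0.32. Nfil3, which represses through the D-box that Dbp activates, had the lowest difference of the list (-0.36, adjusted limma p 0.155). Npas2, which can stand in for Clock, had a difference of -0.20 (adjusted limma p 0.374), opposite in sign to that of Clock. The repressors Bhlhe41 (0.23, adjusted limma p 0.297) and Ciart (0.19, adjusted limma p 0.708) were not distinguishable from no change. Rora, Npas2, Bhlhe41 and Ciart were chosen after their values were seen, for their places in the loop.

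The 15 kinases, phosphatases and ubiquitin enzymes that set the life of clock proteins held no called gene and had a median of 0.00. The lowest difference was that of Gsk3b, a kinase of several clock proteins (-0.18, adjusted limma p 0.406).
Among 14 co-regulators Kdm5a was the only gene called. It codes for a histone demethylase that assists Arntl and Clock. Its level was 11.04, 11.61, 11.50 and 11.17 in 3M and 10.80, 10.95, 10.55 and 10.67 in 29M. The groups did not overlap. It fell by 0.59 (SE 0.14, adjusted limma p 0.0768), and the call was lost in 11 of 19 alternative settings.
Among 18 output and rhythmic genes Avp, the neuropeptide vasopressin, was the only gene called. Its level was 7.63, 7.45, 7.46 and 7.89 in 3M and 8.21, 7.97, 8.80 and 8.14 in 29M, again with no overlap. The rise was 0.68 (SE 0.18, adjusted limma p 0.0997), just past the threshold, and the call was lost in 14 of 19 settings. Nampt, the rate-limiting enzyme of NAD salvage and a known clock target, had a difference of 0.38 (adjusted limma p 0.145) and was likewise chosen after its value was seen.

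**Figure D4:**
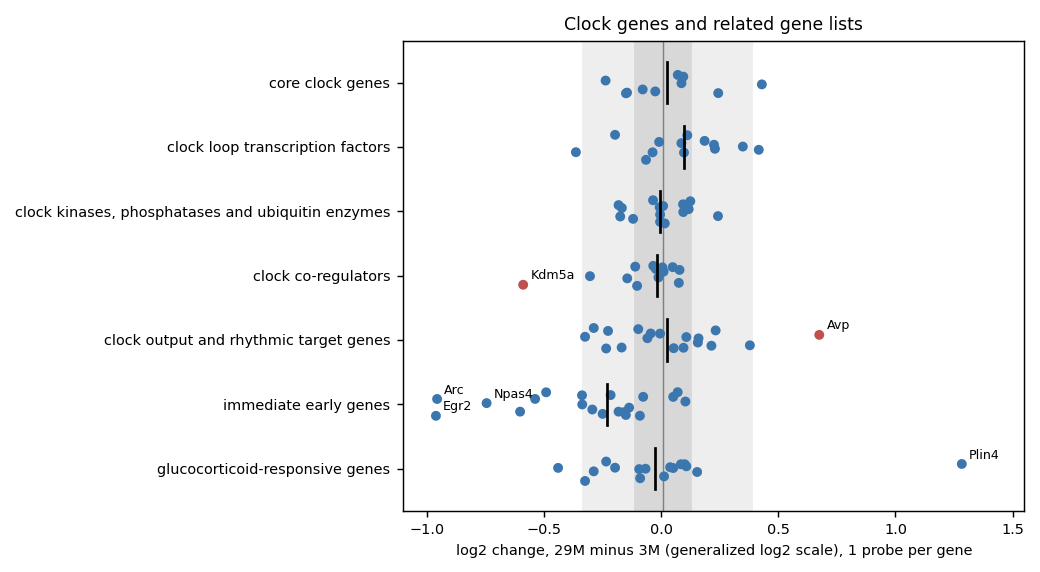
Log2 difference (29M minus 3M, horizontal axis) of each gene by its brightest probe for the clock genes, the 4 other clock lists and the 2 related lists, with list medians as black bars, called genes in red, and the 25th to 75th and 5th to 95th percentiles of all genes in dark and light grey (vertical jitter has no meaning). The clock genes centre near 0 with Cry1 at the right end (0.43), Kdm5a (-0.59) and Avp (0.68) are the called genes, and the immediate early list is centred at -0.23.

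Under 19 alternative settings of normalization, filter, block, weights and arrays left out, 0 of the 11 clock probes were called in any. Apart from Nr1d1, each clock probe kept the sign of its difference in all of them. The difference ranged over these settings from -0.27 to -0.13 for Arntl (lowest adjusted limma p 0.193), from 0.18 to 0.33 for Clock (0.0695, still under the size threshold) and from 0.24 to 0.54 for Cry1 (0.198). It ranged from -0.45 to -0.25 for the Dbp probe A_55_P2032081, with a lowest adjusted limma p of 0.103. Not every setting could move a difference. The replicate block, the probe filter, the stricter threshold and the fit with an intensity trend leave it unchanged by construction. Keeping outlier spots did so too for the clock probes, and a stricter threshold can only remove calls.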

How the data were processed

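The authors deposited, for each array, scanner intensities on a linear scale, made per the file headers with Agilent Feature Extraction 10.7.3.1. The software version and array design in the study's methods differ from these headers, which were followed. The table of the whole series was not used, because all 8 columns equalled a mean local background (tolerance 0.001). Median spot intensities, without control and outlier spots (127 to 190 per array), were transformed by variance stabilising normalization (own implementation in R 4.3.3, trimming quantile 0.9, 7 iterations), and spots of a probe were averaged. Age was tested with limma 3.58.1 (lmFit, eBayes, Benjamini-Hochberg) on probes with at least 3 usable arrays per group, over 39408 probes. The fit was tested on simulated data. Probes were named by accession through RefSeq (66.1% matched). Where 1 value stands for a gene, it is the probe with the highest mean. Of each list, called genes and otherwise the largest rise and fall were named, except for some items that are not reported here. The clock genes, lists, tests and alternatives were chosen with earlier results of these data known. Groups and replicate numbers came from sample titles.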

Additional observations from a re-analysis of the deposited data

Results flagged for a closer look

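In 22 groups of 4 arrays (11 clock probes at 2 ages) 2 held an array far from the other 3, where chance gives about 1.1 at 1 in 20. Per3 in 3M was highest on replicate 2, whose gap to the next array was 0.8294 of the group's range. Cry2 in 29M was highest on replicate 4, with a gap of 0.8567 of the range.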

How the results depend on the processing

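No clock probe was called under any alternative. Probes called over the whole array (456 higher, 321 lower) numbered 762 and 560 with array weights and 296 and 192 at an adjusted p under 0.05, and 256 to 808 and 138 to 601 with 1 array left out, fewest without 3M replicate 2 and most without 3M replicate 1. With the replicate number as a block they were 291 and 192. Whether the numbers pair the samples could not be told from the deviations. Those of same-numbered arrays correlated at -0.26, 0.23, -0.25 and 0.08, and those of other pairs at -0.35 to 0.42. The 2 called genes of the other clock lists were 0 with processed signals scaled to the 75th percentile, processed signals in the variance stabilising model, the replicate block or the stricter threshold, 1 with normexp, outlier spots kept or slide as a fixed block, and 0 to 2 with 1 array left out (0 without 3M replicate 2, 3 or 4 or any array of 29M). Of the immediate early and glucocorticoid-responsive genes 7 were called with array weights and 0 to 5 with 1 array left out (5 without 3M replicate 1, 2 without 29M replicate 4), beside 0. Nr1d1 turned positive, at 0.036 with 75th percentile scaling, 0.051 with processed signals and -0.136 to 0.043 with 1 array left out. Egr3 turned to -0.046 with array weights and ran from -0.16 to 0.19 with 1 array left out. The correlations with Arntl were unstable. With slide means removed they were 0.45 for Per2, 0.27 for Per3, -0.49 for Cry1, -0.011 for Cry2, -0.22 for Dbp and -0.81 for Nr1d1 (-0.19 before), and Cry2 was at -0.043 with normexp. Without the 2 farthest arrays they were 0.14 for Per1, 0.58 for Per2, -0.38 for Cry1 and -0.49 for Dbp. With 1 array left out they spanned -0.64 to 0.094 (Per1), -0.61 to 0.06 (Per2), -0.52 to 0.18 (Per3), -0.008 to 0.862 (Cry1) and -0.062 to 0.518 (Dbp). For Nr1d2 they stayed between -0.87 and -0.59. The causes were not tested.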
